A study of Mus musculus with 9 samples.

Results

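The genomic neighbourhoods of Smad7 and Id1, a pair of classical SMAD target genes, were examined for binding of TGIF1 and MEIS1 in mouse MLL-AF9 cells. Members were all peaks of the 8 deposited lists that overlapped a fixed window of the mm9 genome by at least 1 bp: chromosome 18 from 75430000 to 75650000 for Smad7 (220 kb) and chromosome 2 from 152480000 to 152650000 for Id1 (170 kb). This gave 110 peaks of 182249 in all, 53 in the Smad7 window and 57 in the Id1 window. The windows are given by position alone, and no peak presence, length or summit entered the rule. They were, however, chosen with earlier results of these data known.

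The cells were c-kit+ bone marrow cells of C57BL/6 mice, transformed with the fusion oncogene MLL-AF9 and then transduced with pMIG-TGIF1-ER, a retroviral construct in which TGIF1 is fused to the estrogen receptor so that 4-hydroxytamoxifen (4-OHT) switches it on. All groups carried both MLL-AF9 and TGIF1-ER, so a 4-OHT effect that does not need TGIF1-ER cannot be told apart from an effect of TGIF1. Chromatin immunoprecipitation with sequencing used antibodies to TGIF (H-172) and to Meis, on cells given ethanol (EtOH) or, for 20 h, 4-OHT. Each of the 4 groups had 2 libraries. The sources do not say whether the libraries came from separate cultures, so the spread between them may be technical. An IgG precipitation also belongs to the series and was not analysed here, so how many of the peaks a non-specific antibody would also give is unknown.

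TGF-beta and BMP receptors signal through SMAD proteins, which enter the nucleus and switch target genes on or off. Smad7 encodes an inhibitory SMAD that blocks the activated receptors and so closes a negative feedback loop, and its transcription is a standard readout of TGF-beta signalling. Id1 encodes a helix-loop-helix protein without a DNA-binding region, which holds E proteins away from DNA, restrains differentiation in blood progenitors and is a direct target of BMP signalling. TGIF1 is a homeodomain corepressor that joins SMAD complexes and brings histone deacetylases to them, and it can also bind DNA on its own. MEIS1, like TGIF1 a member of the TALE homeodomain class, binds DNA together with HOX and PBX proteins and drives MLL-rearranged leukaemia.

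By gene order in the GRCm38.p6 annotation, the protein-coding neighbours of Smad7 are Dym and Ctif, and those of Id1 are Mcts2 and H13 on one side and Cox4i2 and Bcl2l1 on the other. Gene positions of mm9 were not used here. The peaks are therefore given by window and position, with no distance to a gene start, and a peak in a window may belong to one of these neighbours.

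The lists differ greatly in length, from 592 peaks (TGIF1 EtOH replicate 2) to 48829 (MEIS1 4-OHT replicate 2), and the sequencing depth behind them is unknown. A missing peak thus shows only that none was called. Overlapping peaks of the 8 lists were joined into regions, numbered in each window from the lowest coordinate up. The Smad7 window held 20 regions and the Id1 window 17.

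TGIF1 peaks at both loci were found almost only after induction. In the Smad7 window the TGIF1 EtOH lists held 0 and 0 peaks, and the TGIF1 4-OHT lists held 2 (replicate 1) and 7 (replicate 2). In the Id1 window the TGIF1 EtOH lists held 0 and 1 peak, and the TGIF1 4-OHT lists held 6 and 11. At both loci the treatments did not overlap: each 4-OHT list held more peaks than each EtOH list.

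For Smad7 the TGIF1 mean was 0.0 ± 0.0 under EtOH and 4.5 ± 3.54 under 4-OHT (SD, n = 2 each), a difference of 4.5 peaks (two-sided exact permutation p = 0.333). For Id1 the TGIF1 mean was 0.5 ± 0.707 under EtOH and 8.5 ± 3.54 under 4-OHT (SD, n = 2 each), a difference of 8.0 peaks (two-sided exact permutation p = 0.333). With 2 libraries against 2, 0.333 is the smallest p this test can give. Such a separation of the treatments was also common elsewhere: it was seen in 50.6% of windows of the Smad7 length and 46.7% of windows of the Id1 length tiled along all chromosomes. The Smad7 difference was 2.0 peaks without TGIF1 4-OHT replicate 2 and 7.0 without TGIF1 4-OHT replicate 1, 1.5 with the longest 50% of each list and 10.0 in a window of double the length. The Id1 difference was 5.0 with the longest 50% of each list and 3.0 in a window of 0.5 times the length.

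List length touched the Id1 result directly. Expressed as a share of the list, the single Id1 peak of TGIF1 EtOH replicate 2 stood for 16.9 per 10000 peaks, while TGIF1 4-OHT replicates 1 and 2 held 4.94 and 4.08 per 10000. On this scale the difference between treatments turned to -3.93 per 10000. This Id1 value rests on 1 peak in a list of 592. At Smad7 the difference on the same scale was 2.12 per 10000, in the direction of the peak numbers. With every TGIF1 list cut to its 592 longest peaks, the differences were 0.0 at Smad7 and -0.5 at Id1. TGIF1 EtOH replicate 2 was not shortened by this cut and kept its Id1 peak. Its mean was 0.0768 peaks per tiled window of the Smad7 length and 0.063 of the Id1 length. A list this short would rarely hold a peak at either locus, so the cut cannot show whether the treatments differed.

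The Id1 window was dense in induced TGIF1 peaks, the Smad7 window less so. The 6 and 11 Id1 peaks stood beside means of 1.3 and 2.89 peaks in all tiled windows of equal length, and 3.89% and 4.09% of those windows held as many peaks or more. The 2 and 7 Smad7 peaks stood beside means of 1.58 and 3.51, with 36.0% and 18.5% of windows at or above them. MEIS1 peaks were more frequent than the tiled mean at both loci, as the bar plot of peaks per list shows. Across the MEIS1 lists, 4.12% to 21.1% of windows held as many peaks or more at Smad7, and 6.61% to 14.9% at Id1.

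**Figure D1:**
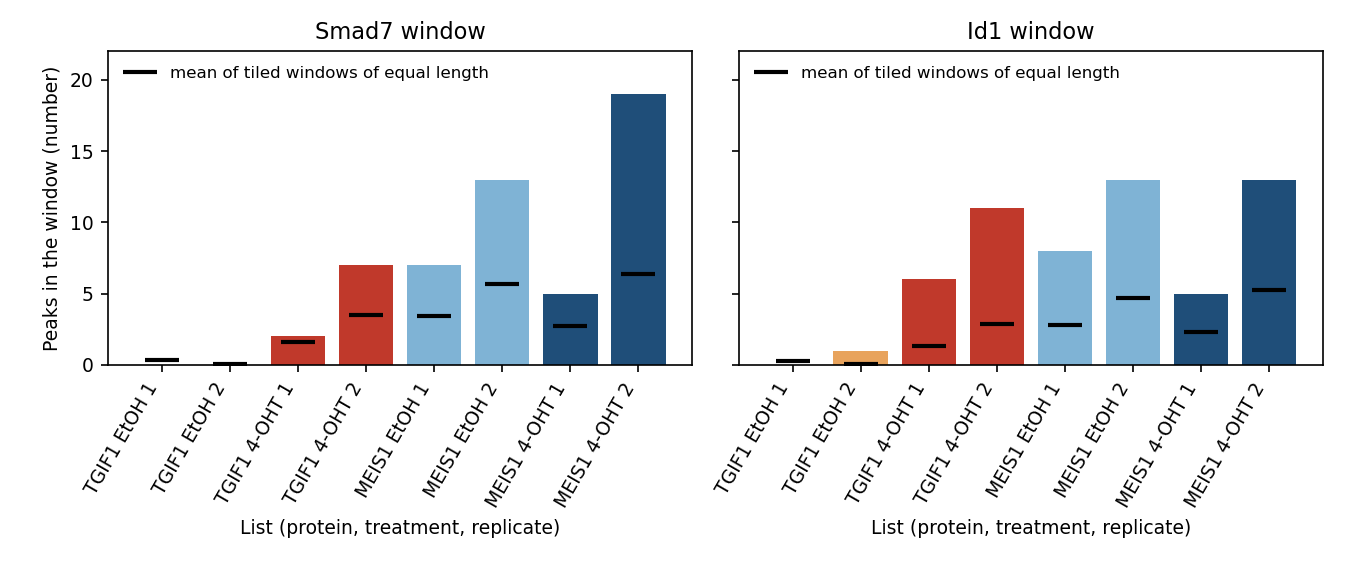
Number of peaks (vertical axis) in the Smad7 window (left) and the Id1 window (right) in each of the 8 lists, named by protein, treatment and replicate number. Bars are single lists and black dashes are the mean over all tiled windows of the same length in that list. The Id1 bars of TGIF1 4-OHT reach 6 and 11 against dashes at 1.3 and 2.89.

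At neither locus did the number of MEIS1 peaks tell EtOH from 4-OHT cells. In the Smad7 window the MEIS1 EtOH lists held 7 and 13 peaks, and the MEIS1 4-OHT lists held 5 and 19. In the Id1 window the MEIS1 EtOH lists held 8 and 13 peaks, and the MEIS1 4-OHT lists held 5 and 13. Replicate 2 was the higher one in each group and is also the longer list.

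The mean MEIS1 number at Smad7 was 10.0 ± 4.24 under EtOH and 12.0 ± 9.9 under 4-OHT (SD, n = 2 each; two-sided exact permutation p = 1.0). At Id1 it was 10.5 ± 3.54 under EtOH and 9.0 ± 5.66 under 4-OHT (SD, n = 2 each; two-sided exact permutation p = 1.0). Both differences were smaller than the spread between replicates. Their direction turned with single libraries: when MEIS1 EtOH replicate 1 was left out, the Smad7 difference of 2.0 became -1.0, and when MEIS1 4-OHT replicate 2 was left out it became -5.0. The Id1 difference of -1.5 became 1.0 when MEIS1 EtOH replicate 2 was left out, and 2.5 when MEIS1 4-OHT replicate 1 was. In tiled windows, both MEIS1 4-OHT lists exceeded both EtOH lists in 2.14% at the Smad7 length and 2.05% at the Id1 length, and the reverse was seen in 1.01% and 1.26%.

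Considered region by region, no MEIS1 site at either locus separated the treatments. Of 19 MEIS1 regions at Smad7 and 16 at Id1, 0 had peaks in both EtOH lists and neither 4-OHT list, beside 1.20% of all MEIS1 regions of the genome, and 0 showed the mirror pattern, beside 1.16%. At these low background shares, a count of 0 among so few regions says little. The zeros depended on single libraries: without MEIS1 4-OHT replicate 2, 2 regions at Smad7 and 3 at Id1 were seen under EtOH only, and without MEIS1 4-OHT replicate 1, 6 and 3 were seen under 4-OHT only. Without MEIS1 EtOH replicate 1, 3 Id1 regions were seen under EtOH only. A call with a list left out is looser, so the shares of 1.20% and 1.16% do not apply to these counts. Peaks in all 4 MEIS1 lists were present at 4 of 19 regions at Smad7 and 4 of 16 at Id1, beside 28.8% of all MEIS1 regions of the genome.

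TGIF1 regions that separated the treatments were about as frequent at both loci as elsewhere. Of 7 TGIF1 regions at Smad7, 2 had a peak in both 4-OHT lists and in neither EtOH list, and of 11 at Id1, 4 did. Over the genome 31.8% of TGIF1 regions did so, a share near those of both loci. The reverse, a peak in both EtOH lists and neither 4-OHT list, was seen at 0 regions of either locus and at 0.0145% over the genome. The remaining 5 regions at Smad7 and 6 of those at Id1 were called in TGIF1 4-OHT replicate 2 alone, and the last Id1 region also carried the EtOH peak. Without TGIF1 4-OHT replicate 1 the counts of separated regions were 7 and 10. That call is looser, so the share of 31.8% does not apply to it.

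This last region, Id1 region 8, was the site with the most lists of either locus. It lay on chromosome 2 from 152560552 to 152561261 and had a peak in 7 of the 8 lists, all except TGIF1 EtOH replicate 1. A peak in at least 7 lists was found at 2.19% of all regions of the genome. The TGIF1 EtOH replicate 2 peak ran from 152560764 to 152560995 and was 232 bp long, shorter than most of its list (length percentile 7.8). The TGIF1 4-OHT peaks at the site were 364 bp (replicate 1) and 662 bp (replicate 2) long, and the MEIS1 peaks were 296 and 700 bp under EtOH and 409 and 522 bp under 4-OHT.

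The 7 summits of Id1 region 8 fell within 29 bp. TGIF1 summits lay at 152560884 (EtOH replicate 2), 152560911 (4-OHT replicate 1) and 152560904 (4-OHT replicate 2). MEIS1 summits lay at 152560913 and 152560894 under EtOH and at 152560902 and 152560898 under 4-OHT. The medians of the TGIF1 and MEIS1 summits were 4.0 bp apart.

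The absence of this site from TGIF1 EtOH replicate 1, the longer EtOH list with 2764 peaks, was not unusual. Of the 587 regions of the genome with a TGIF1 EtOH replicate 2 peak, 20.8% had no peak of replicate 1. Of the same regions, 39.2% also had peaks in both TGIF1 4-OHT lists and all 4 MEIS1 lists, as Id1 region 8 did.

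Region 8 opened a run of 5 regions spaced by less than 2 kb, spanning 7495 bp from 152560552 to 152568046. Regions 9 and 10 began 307 and 615 bp beyond the region before them. Region 9 (152561569 to 152562440) was called in TGIF1 4-OHT replicate 2 and MEIS1 4-OHT replicate 2, and region 10 (152563056 to 152563877) in TGIF1 4-OHT replicate 2 and MEIS1 EtOH replicate 2. Region 11 (152565022 to 152565832) was called in MEIS1 EtOH replicate 2 alone. In contrast to region 8, none of these 3 had a peak from both libraries of a group.

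Id1 region 12 closed the run, from 152566885 to 152568046, and combined 3 MEIS1 peaks with 1 TGIF1 peak. Its MEIS1 peaks were among the longer ones of their lists, with 612 bp and 1162 bp in EtOH replicates 1 and 2 and 984 bp in 4-OHT replicate 2 (length percentiles 94.4, 92.8 and 90.4). MEIS1 4-OHT replicate 1, the shortest MEIS1 list, had none. The TGIF1 4-OHT replicate 2 summit at 152567787, from 1 library only, was at least 285 bp from every MEIS1 summit of the region. The MEIS1 summits were themselves apart, at 152567502 and 152567211 under EtOH and 152567237 under 4-OHT. The gap therefore cannot be read as a difference between the proteins.

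**Figure D2:**
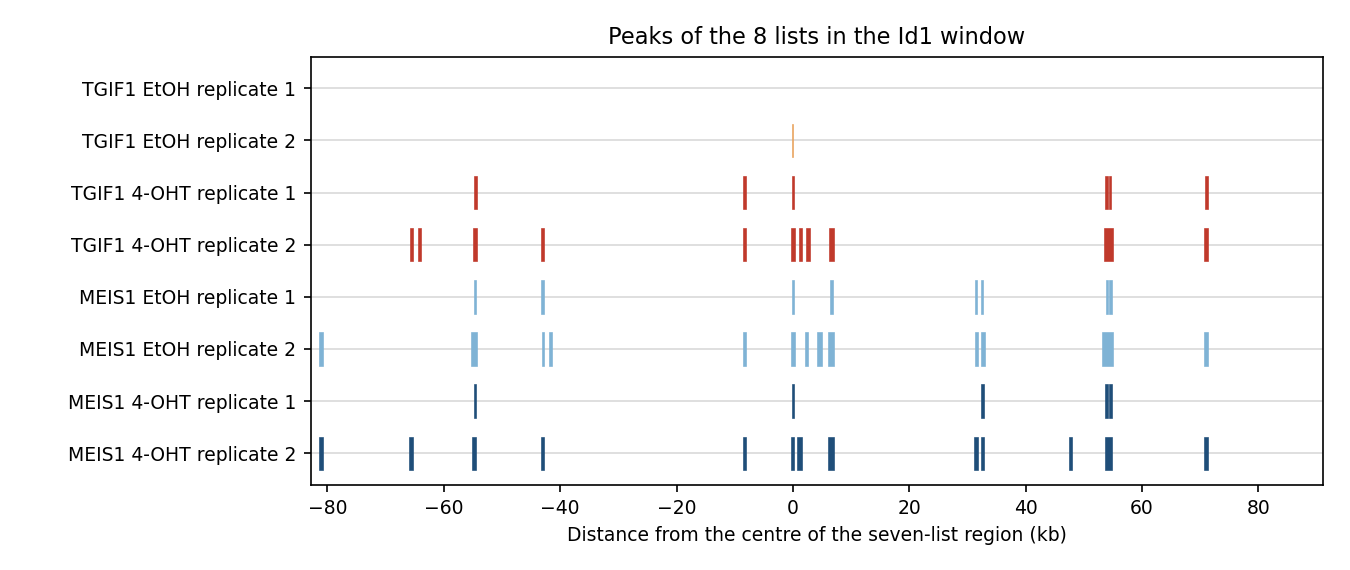
Peaks of each of the 8 lists (rows, by protein, treatment and replicate) in the Id1 window, drawn to scale along the distance in kb from the centre of Id1 region 8. TGIF1 EtOH replicate 1 is empty and TGIF1 EtOH replicate 2 has 1 peak, at 0 kb, while the induced TGIF1 lists hold 6 and 11 peaks that mostly line up with MEIS1 peaks.

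Beyond the run, the other Id1 regions with TGIF1 in both induced libraries were regions 4, 7, 16 and 17. Region 4, from 152505640 to 152506606, lay 54.8 kb below region 8 and had a peak in both TGIF1 4-OHT lists and all 4 MEIS1 lists. Its 6 summits fell within 14 bp, with TGIF1 at 152506284 and 152506282 and MEIS1 between 152506288 and 152506296. The tight stacking is like that of region 8, but without a TGIF1 peak under EtOH.

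Region 16, from 152614104 to 152615884, also had peaks in both TGIF1 4-OHT lists and all 4 MEIS1 lists, and it held a pair of separate summits. Neither TGIF1 EtOH list had a peak there. Each of the other replicate 1 lists split it into 2 peaks. Their summits were 575 bp apart for TGIF1 4-OHT, 592 bp apart for MEIS1 EtOH and 599 bp apart for MEIS1 4-OHT. The replicate 2 lists of the same groups each called 1 long peak instead (1457, 1751 and 1269 bp). Its summit fell on the upper position for TGIF1 4-OHT and MEIS1 4-OHT and on the lower one for MEIS1 EtOH. At the lower position the TGIF1 summit was 26.0 bp from the median MEIS1 summit, and at the upper one the medians were 5.5 bp apart. Both proteins thus had summits at both positions, though TGIF1 had one at the lower position in 4-OHT replicate 1 only.

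Regions 7 and 17 carried TGIF1 in both induced libraries but MEIS1 only in the replicate 2 lists. At region 7 (152552314 to 152552910) the TGIF1 summits at 152552594 and 152552610 lay 6 to 23 bp from those of MEIS1, at 152552617 and 152552616. At region 17 (152631567 to 152632278) the TGIF1 summits at 152631799 and 152631797 agreed within 2 bp, while the MEIS1 summits at 152632007 (EtOH) and 152632046 (4-OHT) were 208 to 249 bp away. Over the genome, 8.94% of regions with both TGIF1 4-OHT lists and at least 1 MEIS1 list had their nearest summits of the proteins over 200 bp apart. The pair of regions share their pattern of lists and differ in where the summits sit.

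The remaining described Id1 regions were carried mainly by MEIS1. Region 14 (152593152 to 152593877) had a peak in all 4 MEIS1 lists and in no TGIF1 list. Region 13 (152592101 to 152592674), 477 bp before it, had MEIS1 peaks in all lists except 4-OHT replicate 1 and no TGIF1 peak. Region 5 (152517656 to 152518154) had the same 3 MEIS1 peaks and a TGIF1 4-OHT replicate 2 peak, with summits 23 to 60 bp apart.

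At Smad7 the induced TGIF1 libraries shared 2 regions, both of which also had peaks in all 4 MEIS1 lists and none in the TGIF1 EtOH lists. Of the 5 such Id1 regions, 3 had all 4 MEIS1 peaks and 4 had no TGIF1 EtOH peak, and over the genome the shares were 46.4% and 78.7%. The first, Smad7 region 7, lay on chromosome 18 from 75512916 to 75513863. Its TGIF1 4-OHT peaks were 695 and 730 bp long, and its MEIS1 peaks were 573 and 948 bp long under EtOH and 704 and 807 bp under 4-OHT. All were longer than 70% of their lists (length percentiles from 70.3 to 94.7).

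The summits at Smad7 region 7 lay close together but in separate groups. The TGIF1 summits were at 75513191 and 75513201, and the 4 MEIS1 summits were between 75513219 and 75513226. Each TGIF1 summit was below each MEIS1 summit, by 18 to 35 bp, with 27.0 bp between the medians. Over the genome, summits of overlapping TGIF1 4-OHT and MEIS1 peaks had median distances of 28.0 to 31.0 bp, depending on the lists. An offset of this size was thus common. Within a protein the spread was 10 bp for TGIF1 and 7 bp for MEIS1.

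At Smad7 region 12 the peaks of the proteins overlapped but their summits were separate. It lay from 75551709 to 75552916, 38.9 kb above region 7. Its TGIF1 summits were at 75552658 and 75552660 in the induced replicates, and its MEIS1 summits were at 75552271 and 75552281 under EtOH and at 75552268 and 75552266 under 4-OHT. The TGIF1 and MEIS1 summits were thus 377 to 394 bp apart, while each protein's own summits agreed within 2 and 15 bp. Of all regions with both TGIF1 4-OHT lists and all 4 MEIS1 lists, 5.84% had their nearest TGIF1 and MEIS1 summits over 200 bp apart, so this arrangement was in the minority.

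**Figure D3:**
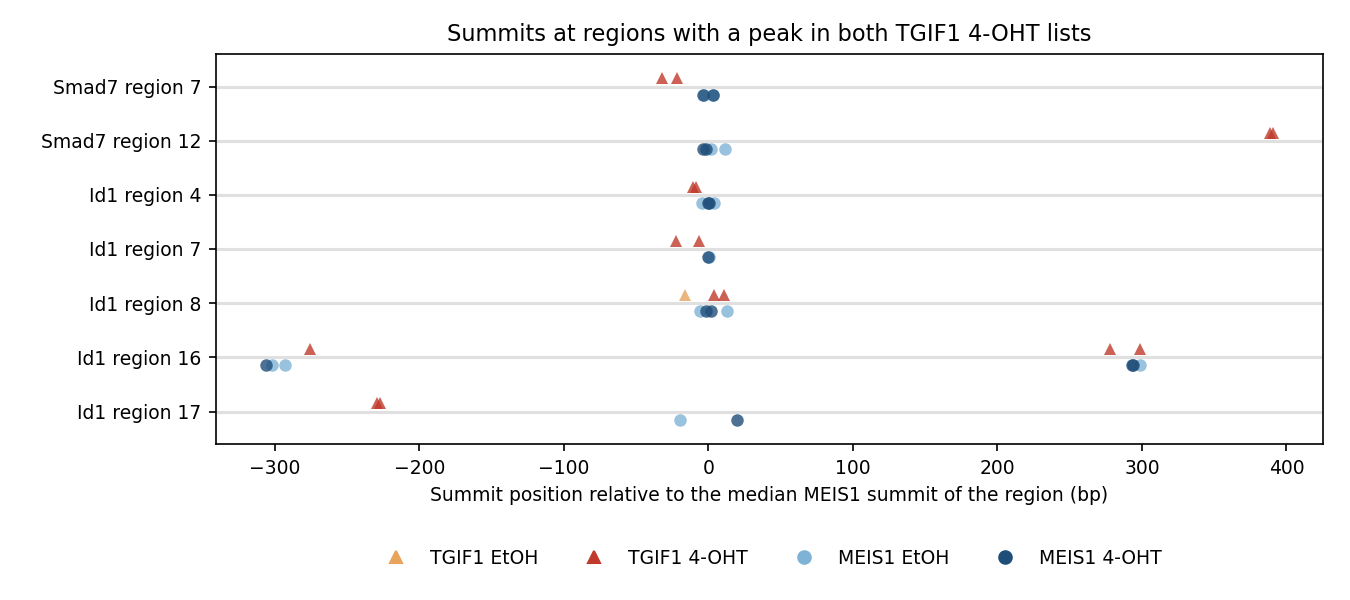
Summit positions in bp (horizontal axis) relative to the median MEIS1 summit, for the 7 regions of both loci with a peak in both TGIF1 4-OHT lists (rows). Triangles are TGIF1 and circles MEIS1 summits of single libraries; they lie together at Smad7 region 7 and Id1 regions 4, 7 and 8, at a pair of positions at Id1 region 16, and apart at Smad7 region 12 (377 to 394 bp) and Id1 region 17 (208 to 249 bp).

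Constant MEIS1 sites without TGIF1 lay near these shared ones. Smad7 region 6, from 75507659 to 75508288 and 5.4 kb below region 7, had a peak in all 4 MEIS1 lists with summits within 26 bp and no TGIF1 peak. Smad7 region 8, from 75522286 to 75523949 and 9.7 kb above region 7, did likewise and had a pair of MEIS1 summits. These were 552 bp apart in EtOH replicate 1 and 579 bp apart in 4-OHT replicate 1, and the replicate 2 lists called 1 peak of 1664 and 1633 bp over both. The latter belong to the longest peaks of their lists (length percentiles 98.6 and 99.0), yet no TGIF1 list had a peak there. Such a split means 2 or more peaks in both replicate 1 MEIS1 lists. Of the 4 regions with all 4 MEIS1 peaks at each locus, 1 had it (Smad7 region 8 and Id1 region 16). Over the genome the share was 2.41%, and with 4 regions at a locus no difference from it can be read. The class was chosen after these regions were seen.

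Regions with all 4 MEIS1 peaks thus divided at both loci. At Smad7, 2 of 4 had both TGIF1 4-OHT peaks and 2 of 4 had no TGIF1 peak. At Id1 the counts were 3 of 4 and 1 of 4. Over the genome the corresponding shares were 32.4% and 45.8%, and with 4 regions at a locus no difference from them can be read.

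Smad7 regions 11 (75535040 to 75535626) and 18 (75611763 to 75612391) had MEIS1 peaks in both EtOH lists and 4-OHT replicate 2, and no TGIF1 peak. Their MEIS1 summits fell within 25 and 12 bp. MEIS1 4-OHT replicate 1 again lacked them, as it lacked Id1 regions 5, 12 and 13. That list holds 21173 peaks, the fewest of the MEIS1 lists, so these 5 sites cannot be read as lost under 4-OHT.

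**Figure D4:**
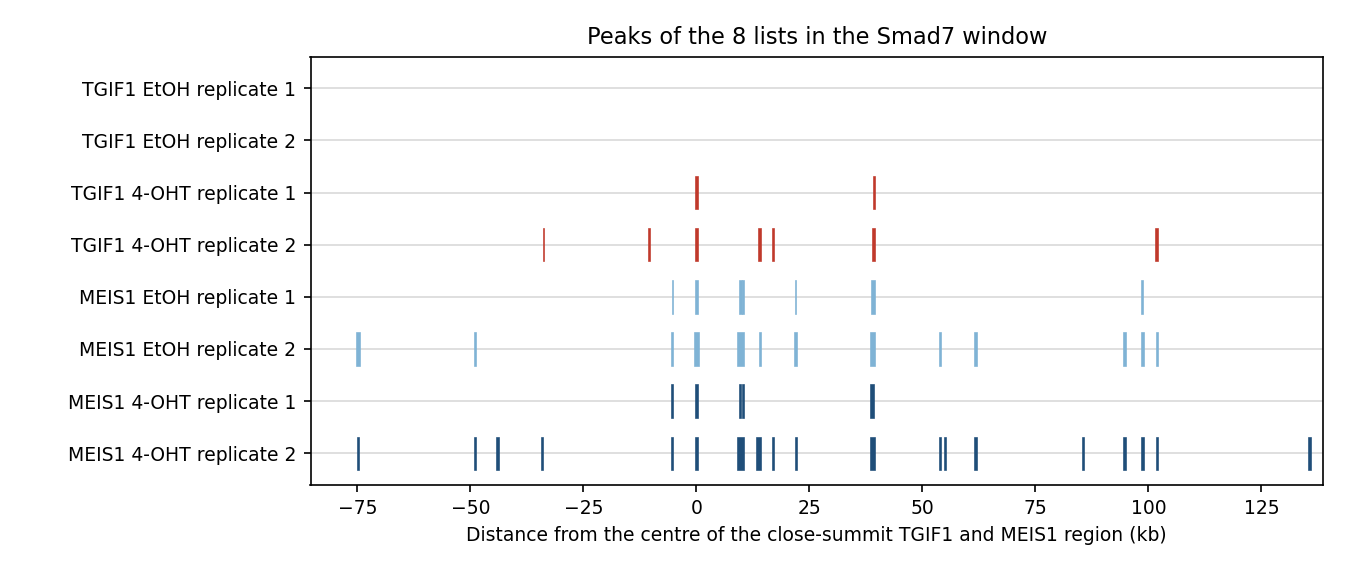
Peaks of each of the 8 lists (rows, by protein, treatment and replicate) in the Smad7 window, drawn to scale along the distance in kb from the centre of Smad7 region 7. Both TGIF1 EtOH rows are empty, and the 2 peaks of TGIF1 4-OHT replicate 1, at 0 kb and near 38.9 kb, overlap peaks of the other induced list and of all 4 MEIS1 lists, at the latter position with separate TGIF1 and MEIS1 summits (377 to 394 bp).

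The other regions, 14 of 20 at Smad7 and 8 of 17 at Id1, were called in replicate 2 lists only. They include the 3 of the Id1 run. The share was 44.9% among all regions of the genome. Smad7 lay above it, and the difference was not tested. No region of either locus came from replicate 1 lists alone, beside 3.66% over the genome. These regions were 450 to 1087 bp long at Smad7 and 522 to 872 bp at Id1, and 5 and 4 of them held a TGIF1 peak. At Smad7, 5 were called in 1 list, 7 in 2 and 2 in 3, and at Id1, 4 were called in 1 list and 4 in 2. Regions called in 1 list were thus 5 of all 20 at Smad7 and 4 of all 17 at Id1, beside 27.2% of all regions of the genome. The only regions with TGIF1 and no MEIS1 peak were Smad7 region 5 (75502610 to 75503059) and Id1 region 3 (152496467 to 152496988), each called in TGIF1 4-OHT replicate 2 alone.

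Sharing of sites between TGIF1 and MEIS1 can be counted by overlap or by summit. Of the TGIF1 4-OHT regions called in both libraries, 2 of 2 at Smad7 and 3 of 5 at Id1 overlapped a MEIS1 EtOH region called in both libraries. Over the genome this share was 60.9%, and with 2 and 5 regions no difference from it can be read. With MEIS1 4-OHT regions the counts were again 2 of 2 and 3 of 5, beside 51.0%. The Id1 count was 5 of 5 without MEIS1 EtOH replicate 1, since regions 7 and 17 have MEIS1 peaks in the replicate 2 lists. It was 0 of 4 with a reciprocal overlap of 50%, a rule that also applied to joining the replicates of a group. Under it the MEIS1 EtOH replicates no longer joined at region 4 (362 and 967 bp), region 8 (296 and 700 bp) or region 16. The TGIF1 4-OHT replicates no longer joined at region 16. The 0 thus does not show that peaks of the proteins failed to overlap. The Smad7 count was 2 of 7 (28.6%) without TGIF1 4-OHT replicate 1.

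Counted by summit, only part of the overlapping peaks had close summits. A TGIF1 4-OHT and a MEIS1 peak in at least 1 list each met in 6 Smad7 regions and 10 Id1 regions. The nearest TGIF1 and MEIS1 summits were at most 50 bp apart in 3 of the 6 and 6 of the 10, beside 75.4% of such regions over the genome. They were over 200 bp apart in 2 of the 6 and 3 of the 10, beside 12.0%. Regions are not replicates, and these counts were not tested against the genome.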

How the data were processed

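Peak lists of 8 chromatin immunoprecipitation libraries were used. The deposited values are peak positions, lengths and summit offsets in bp, without a score or read number, so depth is unknown. Per the submitters' processing notes, reads were handled with Bowtie 0.12.7 and positions are in mm9. The header of 1 list names MACS 1.4.2. For the rest the peak caller, and for all lists the thresholds and control, were not given in the sources used here. Summit positions are start plus offset minus 1.

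The members, the windows and the lists were chosen with earlier results of these data known. Peaks were joined into regions where they overlapped by at least 1 bp. Regions with a peak in both libraries of at least 1 group were described singly, and the others by counts; Id1 regions 9 to 11, Id1 region 3 and Smad7 region 5 were named after their values were seen. Summit distances over 200 bp and at most 50 bp as classes were also chosen after seeing the data. So were the runs of regions and the class of split MEIS1 regions. Peak numbers were compared by two-sided exact permutation tests over libraries. Exact (Clopper-Pearson) 95% intervals of shares served only to judge alternatives. Tiled windows had the length of the locus window and at least 1 peak in any list (7695 and 9358 windows). A planned list of SMAD pathway genes and a motif search were not run, since mm9 annotation and sequence were not used here. Python 3.11.15, numpy 2.4.6, pandas 2.3.3 and scipy 1.17.1 were used. The joining of peaks was tested on simulated data with 3000 sites and against bedtools 2.31.1, and 6 of 6 checks gave equal counts.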

Additional observations from a re-analysis of the deposited data

How the results depend on the processing

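Since each TGIF1 4-OHT list held more peaks than each EtOH list, leaving out a library could not turn the TGIF1 peak number differences. With a library left out these differences were 2.0 to 7.0 at Smad7 and 5.5 to 10.5 at Id1. They were 1.5 and 5.0 with the longest 50% of each list, 3.5 and 3.0 in windows of 0.5 times the length, and 10.0 and 10.5 in windows of double the length. With lists of equal length, which keep 592 TGIF1 peaks each, they were 0.0 and -0.5. Lists this short would rarely hold a peak in either window, so these values and the TGIF1 region counts from the same lists decide nothing. As a share of the list the differences were 2.12 per 10000 at Smad7 and -3.93 per 10000 at Id1. The MEIS1 differences had no stable sign: -5.0 to 9.0 at Smad7 and -5.5 to 2.5 at Id1 with a library left out, and 1.0 at Id1 with the longest 50% of each list. TGIF1 regions in both 4-OHT and neither EtOH list numbered 2 to 7 at Smad7 and 4 to 10 at Id1 with a library left out, 1 and 2 with the longest 50% of each list, 0 and 0 with lists of equal length, 6 at Smad7 in a window of double the length and 1 at Id1 in a window of 0.5 times the length. With a library left out, MEIS1 regions of EtOH only numbered 0 to 2 at Smad7 and 0 to 3 at Id1, and those of 4-OHT only 0 to 6 and 0 to 3. With lists cut to equal length, 1 Smad7 region was MEIS1 4-OHT only. No genome share is given for region counts under altered settings, here or within replicate numbers. The overlap with MEIS1 was 28.6 to 100% at Smad7 and 45.5 to 100% at Id1 with a library left out. It was 0.0% at Id1 when a reciprocal overlap of 50% was required of replicates and proteins alike. The MEIS1 EtOH replicates of unequal peak length then no longer joined at Id1 regions 4, 8 and 16, so this value does not measure overlap between the proteins. Cutting the lists to equal length left no TGIF1 4-OHT region called in both libraries at either locus, so this share had no value there. What caused the remaining changes was not tested.

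The labels give groups the same replicate numbers without stating a pairing. Across regions, the difference in presence between the replicates of EtOH and that of 4-OHT correlated with r = 0.282 (TGIF1) and 0.227 (MEIS1), and regions are not replicates. Replicate 2 is the longer MEIS1 list in both treatments, while for TGIF1 it is the shorter EtOH and the longer 4-OHT list. With 2 replicates a group, these values were not used to decide on pairing. With the replicate block, the mean differences were as without it: 4.5 and 8.0 peaks for TGIF1, 2.0 and -1.5 for MEIS1. Within replicate number 1 the MEIS1 difference was -2.0 at Smad7, and 2 Smad7 and 3 Id1 regions were EtOH only. Within replicate number 2 the MEIS1 difference at Id1 was 0.0, TGIF1 regions of 4-OHT only numbered 7 at Smad7 and 10 at Id1, MEIS1 regions of 4-OHT only numbered 6 and 3, and 3 Id1 regions were EtOH only.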
